A study of Rattus norvegicus with 8 samples.

Results

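The transforming growth factor beta (TGF-beta), activin and bone morphogenetic protein (BMP) signals of the rat dentate gyrus were followed through 10 genes, out of 35250 gene names printed on the array. They were chosen by name as ligands, an activin antagonist and receptors of this pathway. The 10 genes were *Inhba*, *Inhbb*, *Fst*, *Tgfb1*, *Tgfb2*, *Tgfb3*, *Tgfbr1*, *Tgfbr2*, *Bmp2* and *Bmp4*, and their levels come from every non-control spot that carries one of these names. There were 25 such spots of 16 probes, and the accessions of all 25 lead to the same symbol in RefSeq.

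The array compared the dentate gyrus of adult female Sprague-Dawley rats that had all been ovariectomized (OVX) and had all gone through status epilepticus (SE) after kainic acid, a glutamate receptor agonist. The 4 rats given the oil vehicle are called COS and the 4 rats given estradiol (E2) replacement are called CES. Per the labels, E2 was given as 4 injections of 2 μg, one every 24 h, before and after SE. Also per the labels, kainic acid was given at 16 mg/kg, and SE was ended after 5 h with pentobarbital. The study's methods give a lower dose of kainic acid, diazepam to end SE and E2 injections that all precede SE. They state both an early and a next-day collection of the tissue, so the time between SE and collection is not settled. Rats without SE were not analysed here, and every value below is a difference between the 2 treatments after SE, not a response to SE.

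Ligands of this family are secreted dimers that bring together type I and type II serine/threonine kinase receptors. The activated type I receptor phosphorylates Smad proteins, Smad2 and Smad3 for TGF-beta and activin and Smad1, Smad5 and Smad9 for BMPs, which enter the nucleus with Smad4. In the hippocampus, activin A is known as an activity-induced factor of dentate granule neurons, TGF-beta1 as a product of glia after injury, and BMPs as signals that hold adult neural stem cells in quiescence.

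The 250 bases before the RefSeq transcript start are shown for 3 of the genes that fell and for *Inhbb*, which did not. They are given in rat build GRCr8, 5′ to 3′ on the strand of the gene, with capitals for the matches described after them.
Inhba, chr17:53804509-53804758, minus strand: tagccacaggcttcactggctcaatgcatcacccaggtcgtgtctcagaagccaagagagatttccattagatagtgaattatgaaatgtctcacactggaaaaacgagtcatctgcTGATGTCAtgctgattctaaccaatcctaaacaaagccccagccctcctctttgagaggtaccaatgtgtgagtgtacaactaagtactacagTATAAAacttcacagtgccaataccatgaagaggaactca
Tgfb1, chr1:90324062-90324311, plus strand: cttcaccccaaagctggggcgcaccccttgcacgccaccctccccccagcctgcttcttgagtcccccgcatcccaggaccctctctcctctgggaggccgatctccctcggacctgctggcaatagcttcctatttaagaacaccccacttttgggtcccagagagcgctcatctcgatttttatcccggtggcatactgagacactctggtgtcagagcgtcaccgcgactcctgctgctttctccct
Tgfb2, chr13:100792686-100792935, minus strand: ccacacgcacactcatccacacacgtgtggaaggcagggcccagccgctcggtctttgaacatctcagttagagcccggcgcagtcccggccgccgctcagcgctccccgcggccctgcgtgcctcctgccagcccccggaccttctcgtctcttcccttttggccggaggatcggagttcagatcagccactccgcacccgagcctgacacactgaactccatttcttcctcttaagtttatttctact
Inhbb, chr13:33089374-33089623, minus strand: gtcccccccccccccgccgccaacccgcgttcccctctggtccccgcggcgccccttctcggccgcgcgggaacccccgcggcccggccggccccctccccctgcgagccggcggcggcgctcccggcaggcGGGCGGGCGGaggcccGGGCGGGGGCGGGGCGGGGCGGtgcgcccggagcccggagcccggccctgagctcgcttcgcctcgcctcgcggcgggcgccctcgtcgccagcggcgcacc

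The window of *Inhba* holds TATAAA, starting 40 bases before the start, and TGATGTCA, starting 133 bases before it. TATAAA was found in 12.9% of 33469 rat promoter windows of this length, and TGANGTCA, where N is any base, in 8.88%. The windows of *Tgfb1* and *Tgfb2* hold none of the motifs searched. The window of *Inhbb* holds GGGCGG at 6 overlapping or neighbouring places, a motif found in 30.5% of all windows. Its content of G and C was 86.8%, against 43.6% for *Inhba*, 60.0% for *Tgfb1*, 61.6% for *Tgfb2* and a median of 51.2% over all windows. Of the 8 member promoters in the table, 4 held GGGCGG, those of *Inhbb*, *Tgfbr1*, *Tgfbr2* and *Bmp4*. *Tgfbr1* also fell, and its window, not shown, holds the motif starting 158, 141 and 103 bases before the start. The content of G and C in that window was 75.6%. None of the 8 held TGACGTCA, TGANTCA or the estrogen response element (GGTCA and TGACC 3 bases apart), which were found in 1.59%, 6.34% and 0.0239% of all windows. All motifs were searched on both strands, and the full cAMP response element TGACGTCA is also counted under TGANGTCA. *Bmp2* and *Fst* have no entry in the table of promoters used here.

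Each rat gave 1 dye channel of 1 of 4 arrays, with 2 rats of the same treatment on each array, so arrays lie within treatments. Between 30690 and 38553 spots per rat were valid, meaning a foreground of at least 2 times the local background, and no spot was saturated. Within each dye COS had more valid spots than CES. In Cy3 these were 37716 and 38553 against 33483 and 35352, and in Cy5 34759 and 32381 against 31826 and 30690. The 8 rats are separate animals, and n = 4 per group throughout. Levels are log2 of the background-subtracted signal over the median of the valid spots of the same channel, so 0 is the channel median. A level depends on the probe, and levels are compared here between rats and never between genes. On this scale the median of 21372 genes was 0.25 lower in CES than in COS (log2 difference -0.25), so differences are also given relative to that median. The limma fit called 28.3% of these genes lower and 5.79% higher in CES at an adjusted p under 0.05. After loess normalization within arrays and quantile normalization of the mean channel (Aquantile), the median was 0.04 and the shares were 10.4% lower and 15.5% higher. With channel medians over commonly valid spots, those valid in all 8 rats, the median was 0.15. That fit called 1720 genes lower and 3352 higher, so the shift of -0.25 and the shares depend on the scaling.

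CES replicate 2 stood apart, with a correlation of 0.967 with the mean of its group over all genes, against 0.983 to 0.992 for the other 7 rats. It was the highest CES rat for 4 members and the lowest for 4. Results on the members are therefore also given without it, except for *Tgfbr2*, which was not fitted that way.

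Dissection was checked with marker genes of the cell types that the tissue could hold. The dentate granule cell markers ranged from 0.74 to 0.95 in COS and from 0.19 to 0.56 in CES (mean log2 level relative to the median of all genes; 3 of 4 quantified). *Prox1*, the defining transcription factor of granule cells, was not well above background in any rat. The pyramidal cell markers of CA1 and CA3 ranged from -0.99 to -0.64 in COS and from -0.34 to 0.58 in CES, and the astrocyte markers from 1.05 to 1.52 in COS and from 1.59 to 2.16 in CES. For these 3 lists the groups did not overlap (exact permutation test, two-sided, p = 0.0286, the smallest that 4 against 4 rats allow, and 0.0857 after adjustment over 9 lists). Within the astrocyte list *Aldh1l1* (1.23) and *Gja1* (1.27) were called higher in CES, while *Gfap*, the filament protein of reactive astrocytes, differed by -1.19 (limma adjusted p = 0.0618). The microglia markers ranged from 0.24 to 0.66 in COS and from 0.39 to 0.56 in CES, but the genes of this list went opposite ways: *Itgam* (-1.92) and *Csf1r* (-0.92) were called lower and *P2ry12* (0.93) higher, with differences as CES minus COS on the log2 scale. The choroid plexus markers ranged from -1.07 to 2.66 in COS and from -0.54 to 1.46 in CES, the meningeal markers from 0.09 to 1.12 and from 0.19 to 0.55, the endothelial markers from -0.26 to -0.07 and from -0.74 to -0.16, and the oligodendrocyte markers from 3.14 to 4.36 and from 3.99 to 4.95. Of the 5 blood leukocyte markers 1 was quantified, from -3.77 to -2.72 in COS and from -4.13 to -1.33 in CES. The part of these shifts in the results below was not tested. In bulk tissue, fewer cells of a type and less RNA per cell cannot be told apart.

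Of the 10 genes, 9 were quantified in all 8 rats and 1, *Tgfbr2*, was not. The genes *Inhba*, *Bmp2*, *Tgfb1*, *Tgfb2* and *Tgfbr1* fell in CES, that is, 5 of the 9 passed the test as lower, while 28.3% of all genes did. No member rose by the limma test, either adjusted or at an unadjusted p under 0.05. For 4 of the 9 every CES rat lay below every COS rat, as did 19.8% of all genes, and for none did every CES rat lie above, as did 1.61% of all genes. The median difference of the 9 was -0.92, or -0.67 relative to all genes. After loess and Aquantile, 4 members were called lower and 2, *Inhbb* and *Tgfb3*, higher, while 10.4% of all genes were called lower and 15.5% higher.

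**Figure D1:**
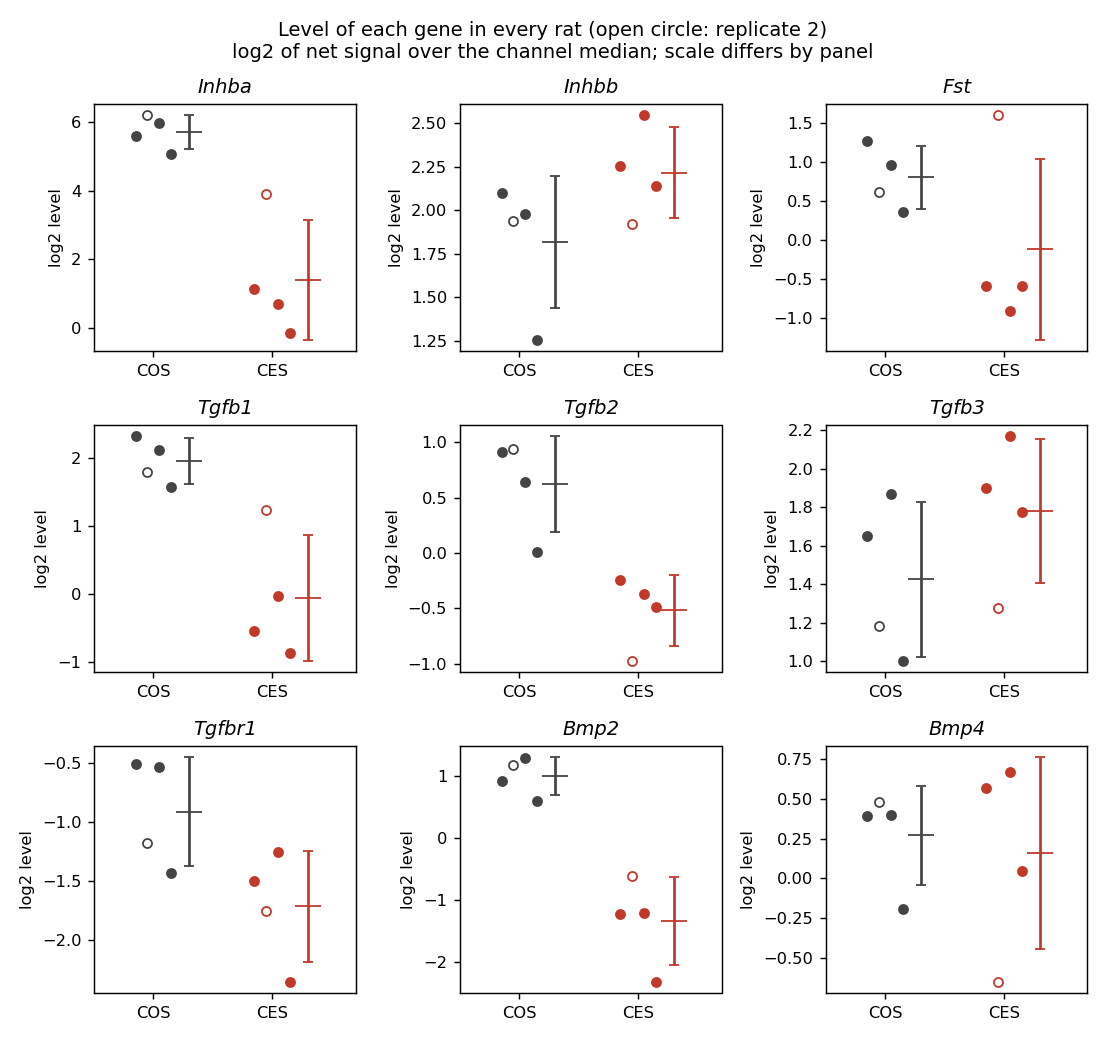
Level of the 9 quantified genes in each rat, with 1 panel per gene and its own vertical axis (log2 of the background-subtracted signal over the channel median). Grey points are COS rats, red points are CES rats, open circles are replicate 2 of each group, and bars are mean ± SD (n = 4); all CES points lie below all COS points for *Inhba*, *Tgfb1*, *Tgfb2* and *Bmp2*.

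Among the activin genes, *Inhba*, which encodes the beta A subunit whose dimer is activin A, fell furthest of the members. Its 1 probe lies at chr17:57244604-57244663 (build rn4, minus strand) and was well above background in all 8 rats. The levels were 5.59, 6.22, 5.99 and 5.08 in COS replicates 1 to 4, and 1.15, 3.90, 0.70 and -0.15 in CES replicates 1 to 4. The COS rats lay close together, and CES replicate 2 lay between them and the other CES rats without reaching the COS range. The mean fell from 5.72 ± 0.50 in COS to 1.40 ± 1.75 in CES (SD, n = 4). The log2 difference was -4.32 (SE 0.71, 95% confidence interval -5.90 to -2.73, limma adjusted p = 0.00433), a 19.9-fold lower level, or -4.06 relative to all genes. Without CES replicate 2 it was -5.24 (limma adjusted p = 2.74e-06).

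*Inhbb*, which encodes the beta B subunit of activin B and inhibin B, did not pass the test on the channel-median scale. Its levels were 2.10, 1.94, 1.98 and 1.25 in COS and 2.25, 1.92, 2.55 and 2.14 in CES, in replicate order. The groups overlapped on this scale, with CES replicate 2 inside the COS range. Relative to all genes they did not, with 0.64 to 1.06 in COS and 1.38 to 1.78 in CES. The share of all genes without overlap relative to that median was not counted, here or for *Tgfb3* and *Tgfbr1* below. The difference was 0.40 (SE 0.19, 95% confidence interval -0.02 to 0.82, limma adjusted p = 0.128), or 0.65 relative to all genes. It was 0.67 after loess and Aquantile (SE 0.11, limma adjusted p = 0.0115), and that fit called it higher in CES. Without CES replicate 2 the difference was 0.44 (limma adjusted p = 0.115). Both probes that were valid in all rats gave like differences, 0.39 and 0.45. *Inhba* and *Inhbb*, which encode subunits of the same class of dimers, differed in sign under each of the 22 alternatives as well as on the reported scale. Alternatives that changed only the blocks, the dye term or the test could not change either difference. Filters on spots and the choice of probe left that of *Inhba* at -4.32.

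*Fst* encodes follistatin, a secreted protein that binds activins and blocks their receptor contact. Its levels were 1.27, 0.61, 0.96 and 0.36 in COS, and -0.59, 1.60, -0.90 and -0.58 in CES. Replicates 1, 3 and 4 of CES lay below every COS rat, and CES replicate 2 lay above every COS rat. The difference was -0.92 (SE 0.48, 95% confidence interval -2.00 to 0.16, limma adjusted p = 0.167). Without CES replicate 2 it was -1.54 (limma adjusted p = 4.04e-04), so *Fst* was called lower only with that rat left out. The 2 probes gave differences of -0.80 and -1.02.

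The 3 TGF-beta ligands did not move alike. *Tgfb1*, the isoform that glia and macrophages make after injury, fell from 1.95 ± 0.34 in COS to -0.05 ± 0.93 in CES (SD, n = 4). Its 10 spots carry 1 probe, at chr1:80910123-80910182 (build rn4, plus strand), and all were well above background in every rat. The levels were 2.33, 1.79, 2.12 and 1.57 in COS and -0.54, 1.24, -0.03 and -0.87 in CES. All CES rats lay below all COS rats, and CES replicate 2 was nearest to COS. The difference was -2.00 (SE 0.41, 95% confidence interval -2.91 to -1.09, limma adjusted p = 0.00707), a 4.01-fold lower level, or -1.75 relative to all genes. Without CES replicate 2 it was -2.52, and without COS replicate 3 it was -1.91 and lost its call (limma adjusted p = 0.0686), as it did at -1.42 with normexp background correction (limma adjusted p = 0.0513).

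*Tgfb2*, an isoform made by neurons and astrocytes, fell by a smaller amount. Its probe lies at chr13:102719362-102719421 (build rn4, minus strand). The levels were 0.91, 0.94, 0.64 and 0.01 in COS and -0.24, -0.97, -0.37 and -0.49 in CES. The groups did not overlap, but COS replicate 4 and CES replicate 1 lay near each other. The difference was -1.14 (SE 0.23, 95% confidence interval -1.65 to -0.64, limma adjusted p = 0.00649), a 2.21-fold lower level, or -0.89 relative to all genes. It was -0.50 after loess and Aquantile (limma adjusted p = 0.0420), and without CES replicate 2 it was -1.03. The call was lost without COS replicate 3 (limma adjusted p = 0.0511), with channel medians taken over commonly valid spots (-0.74, limma adjusted p = 0.0658), with the deposited log2 table (-0.76, limma adjusted p = 0.0630) and with normexp background correction (-0.68, limma adjusted p = 0.330).

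*Tgfb3*, the remaining isoform, had the opposite sign. Its levels were 1.65, 1.18, 1.87 and 1.00 in COS and 1.90, 1.28, 2.17 and 1.77 in CES. The groups overlapped on this scale, and in both of them the Cy5 rats, replicates 2 and 4, lay below the Cy3 rats. The dye term of the fit takes this up. Relative to all genes the groups did not overlap, with 0.30 to 0.57 in COS and 0.74 to 1.41 in CES. The difference was 0.35 (SE 0.18, 95% confidence interval -0.04 to 0.75, limma adjusted p = 0.145), or 0.61 relative to all genes. After loess and Aquantile it was 0.62 (SE 0.13, limma adjusted p = 0.0166), and that fit called it higher in CES. Without CES replicate 2 it was 0.44 (limma adjusted p = 0.0784).

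The 2 BMP ligands differed as well. *Bmp2*, a BMP that signals through Smad1 and Smad5, fell from 0.99 ± 0.31 in COS to -1.35 ± 0.71 in CES (SD, n = 4). The levels of its probe at chr3:121381127-121381186 (build rn4, plus strand) were 0.92, 1.17, 1.29 and 0.59 in COS and -1.23, -0.62, -1.21 and -2.32 in CES. All CES rats lay below all COS rats by more than the range within COS. The probe was well above background in all 4 COS rats and in 2 of the 4 CES rats, and the other probe was valid in 4 COS and 2 CES rats and was left out. The difference was -2.34 (SE 0.32, 95% confidence interval -3.06 to -1.62, limma adjusted p = 0.00374), or -2.08 relative to all genes. It was -1.15 after loess and Aquantile (limma adjusted p = 0.00954) and -1.40 with normexp background correction (limma adjusted p = 0.0252), and without CES replicate 2 it was -2.67.

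*Bmp4*, which acts through the same receptors, did not pass the test under any setting. Its levels were 0.39, 0.48, 0.39 and -0.19 in COS and 0.57, -0.65, 0.67 and 0.04 in CES. CES spanned a wider range than COS and enclosed it. The difference was -0.11 (SE 0.23, 95% confidence interval -0.63 to 0.41, limma adjusted p = 0.745), 0.14 relative to all genes, and 0.19 after loess and Aquantile. Without CES replicate 2 it was 0.10. The interval leaves room for a 1.55-fold lower or a 1.33-fold higher level in CES.

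Of the receptors, *Tgfbr1*, the type I receptor of the TGF-beta ligands (ALK5), fell, but near the background. Its levels were -0.50, -1.18, -0.53 and -1.43 in COS and -1.50, -1.75, -1.25 and -2.35 in CES. The groups overlapped on this scale, and within each dye the COS rats lay above the CES rats. Relative to all genes they did not overlap, with -2.06 to -1.67 in COS and -2.72 to -2.14 in CES. The difference was -0.80 (SE 0.18, 95% confidence interval -1.21 to -0.40, limma adjusted p = 0.0101), or -0.55 relative to all genes. The 2 probes behind it gave -0.57 and -1.03, each well above background in 3 rats of COS and in 2 of CES, and the remaining probe was not well above background in any rat. After loess and Aquantile the difference was -0.20 and was no longer called (limma adjusted p = 0.0927), nor was it with normexp background correction (-0.40, limma adjusted p = 0.695), channel medians over commonly valid spots (-0.40, limma adjusted p = 0.0787), the deposited log2 table (-0.43, limma adjusted p = 0.0746) or no filter on valid spots (-0.80, limma adjusted p = 0.0501). The call was also lost without COS replicate 3 (difference -0.79, limma adjusted p = 0.0698) and without CES replicate 1 (-0.73, limma adjusted p = 0.0506), while without CES replicate 2 the difference was -0.94.

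*Tgfbr2*, the type II receptor that binds the ligand first, had 1 probe that was valid in 4 COS and 3 CES rats, so it was not quantified in the comparison. With the filter on valid spots lifted, its levels were -1.11, -1.75, -0.99 and -1.95 in COS and -2.21, -2.57, -1.94 and -3.88 in CES. COS replicate 4 and CES replicate 3 lay at the same height. The difference was then -1.21 (SE 0.31, limma adjusted p = 0.0459 over all genes without the filter). The probe was well above background in 2 COS rats and 1 CES rat, so the lower levels are not well measured.

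**Figure D2:**
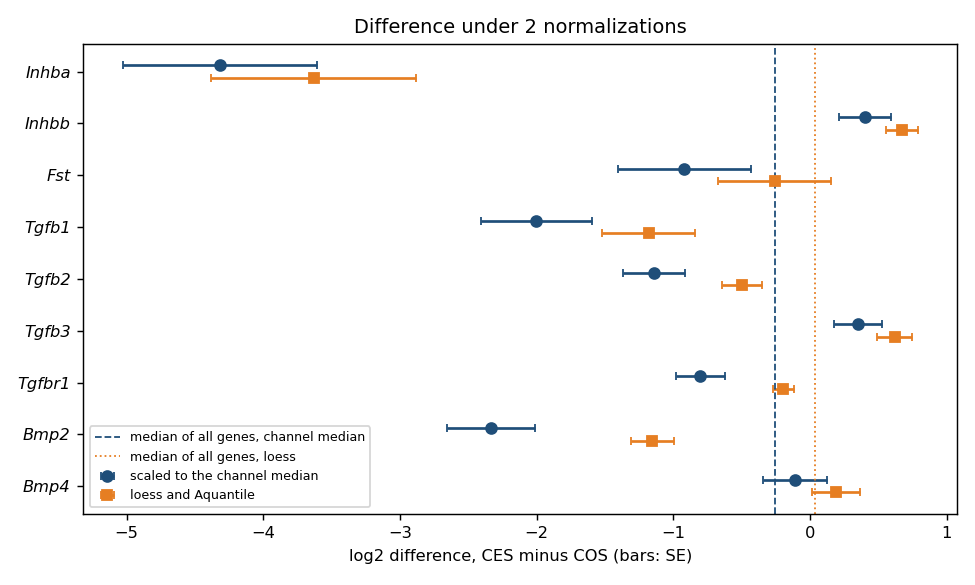
Difference in mean log2 level, CES minus COS, for the 9 quantified genes. Circles are the channel-median scale and squares are loess and Aquantile, bars are SE, and the vertical lines are the medians of all genes at -0.25 and 0.04; *Inhba*, *Tgfb1*, *Tgfb2* and *Bmp2* lie left of both lines and *Inhbb* and *Tgfb3* right of both.

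Across the 22 alternatives *Inhba* kept its direction and ranged from -5.24 to -3.46, *Tgfb1* from -2.52 to -1.18 and *Tgfb2* from -1.30 to -0.50. *Bmp2* and *Tgfbr1* had a value under 20 alternatives and ranged from -3.26 to -1.15 and from -1.03 to -0.20. *Inhbb* ranged from 0.26 to 0.80 and *Tgfb3* from 0.21 to 0.75, and each was called higher under 4 alternatives, all of which rescale the channels. *Fst* ranged from -1.54 to -0.26 under the 21 alternatives that gave it a value, and *Bmp4* took both signs, from -0.24 to 0.31.

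**Figure D3:**
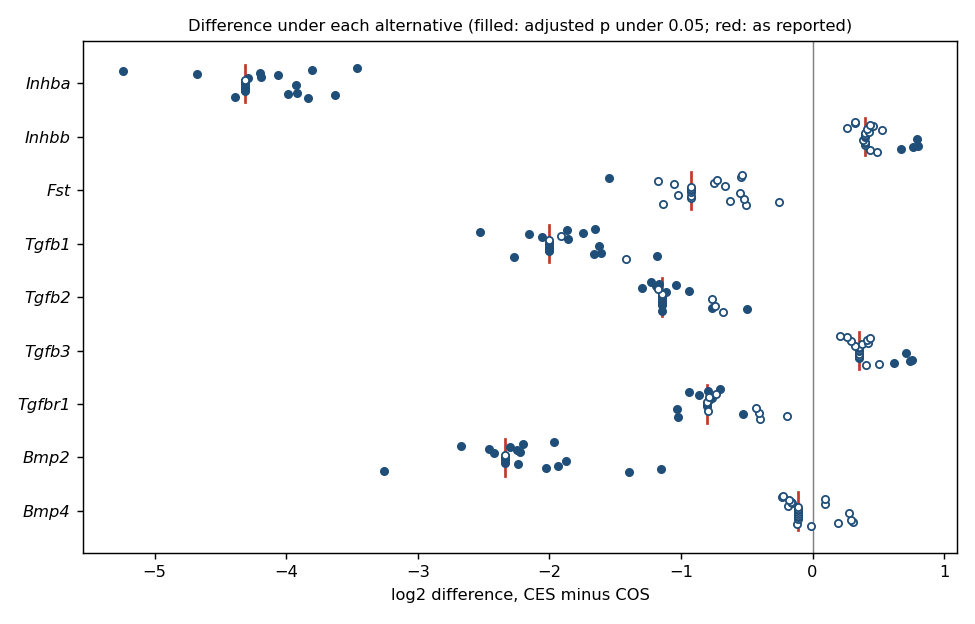
Log2 difference, CES minus COS, of the 9 genes under each alternative way of processing. Each point is 1 alternative, filled where the adjusted p was under 0.05, and the red line is the reported value; *Bmp4* is the only gene of the 9 with points on both sides of 0.

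The rest of the pathway was followed through 76 genes in 6 lists by role, of which 64 could be tested. In CES 35 of the 64 fell and 3 rose, while 28.3% of all genes were called lower and 5.79% higher. The same shares stand beside the counts of each list below. The median difference of the 64 was -0.64, or -0.39 relative to all genes. Large falls were seen in target genes, an activin-binding protein and a Smad corepressor, and all 6 Smads tested fell. The fit after loess and Aquantile called 21 of the 64 lower and 3 higher, against 10.4% and 15.5% of all genes. These shares stand beside the counts of each list after that fit. Without COS replicate 3 the count of falls was 11 and without CES replicate 1 it was 19, against 39 without CES replicate 2. Over all 21372 genes the counts of lower calls moved too, from 6054 to 932, 2493 and 7002.

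Among the receptors and coreceptors, 4 of 10 fell and none rose (limma; 2 lower and 0 higher after loess and Aquantile). *Acvrl1*, the endothelial type I receptor ALK1, differed by -1.49 (limma adjusted p = 0.00543) and *Eng*, which encodes the coreceptor endoglin, by -1.64 (limma adjusted p = 0.00474), each with no overlap between groups. Both serve TGF-beta family ligands in vessels, and the endothelial marker list ranged from -0.26 to -0.07 in COS and from -0.74 to -0.16 in CES. Its part in these differences was not tested. *Acvr1b*, the type I receptor of activin, differed by -0.98 (limma adjusted p = 0.0148) and *Acvr2a*, a type II receptor of activin, by -0.55 (limma adjusted p = 0.0447), each well above background in only 2 CES rats. With its brightest probe alone, *Acvr2a* differed by -0.90 (limma adjusted p = 0.0116). With spots of at least 3 times the background, it differed by -0.04 (limma adjusted p = 0.867). After loess and Aquantile, *Acvrl1* and *Eng* remained called lower, and *Acvr1b* and *Acvr2a* did not, and with normexp background correction none of the 4 was called (limma adjusted p from 0.0648 to 0.787). The other 6 did not pass the test, with differences of -0.30 for *Acvr1*, -0.59 for *Acvr1c*, -0.18 for *Acvr2b*, -0.07 for *Bmpr1a*, -0.35 for *Bmpr2* and 0.02 for *Tgfbr3*. Of these, *Acvr1*, *Acvr2b*, *Bmpr1a*, *Bmpr2* and *Tgfbr3* took the other sign under some alternatives. Without COS replicate 3 all 4 falls lost their call, at -1.39 for *Acvrl1* (limma adjusted p = 0.0540), -1.54 for *Eng* (0.0511), -0.96 for *Acvr1b* (0.0919) and -0.41 for *Acvr2a* (0.189). Leaving out CES replicate 1 also ended the call of *Acvr1b* (-0.96) and *Acvr2a* (-0.46), and *Acvr2a* lost it without any 1 of the COS rats. *Acvr1c* was called lower without CES replicate 2 (-0.87) or CES replicate 3 (-0.74). The median of the list was -0.45, or -0.20 relative to all genes.

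All 6 Smads that could be tested fell, each with no overlap between groups. Every CES rat lay below every COS rat in 19.8% of all genes. All 6 Smads were also called lower after loess and Aquantile. With normexp background correction *Smad1* alone kept its call, and the other 5 had limma adjusted p from 0.260 to 0.400 and differences from -0.77 to -0.62. *Smad7* was also not called with channel medians over commonly valid spots (-0.47), the deposited log2 table (-0.49) or no filter on valid spots (-0.87). The Smads that carry BMP signals differed by -1.50 for *Smad1* (limma adjusted p = 0.00341) and -1.07 for *Smad5*. *Smad2*, which carries TGF-beta and activin signals, differed by -0.96 (limma adjusted p = 0.00667), and *Smad4*, the partner shared by both branches, by -1.05. The inhibitory Smads, which the pathway itself induces, differed by -1.73 for *Smad6* (limma adjusted p = 0.00294) and -0.87 for *Smad7*. For *Smad6*, 3 COS rats and 2 CES rats had a signal well above background. Without COS replicate 3 the calls of *Smad2* (-0.91), *Smad4* (-0.98), *Smad5* (-0.98) and *Smad7* (-0.78) were lost, with limma adjusted p from 0.0597 to 0.0821, and *Smad7* also lost its call without CES replicate 1 (-0.75). The 6 differences without CES replicate 2 lay between -1.75 and -0.99. *Smad3* and *Smad9* were not well above background in any rat and have no value. The list's median was -1.06, or -0.81 relative to all genes, and after loess and Aquantile the differences of the 6 lay between -0.94 and -0.38.

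Of the target genes 7 of 10 fell and none rose (limma; 5 lower and 0 higher after loess and Aquantile), with a median of -1.23, or -0.98 relative to all genes. *Timp1*, an inhibitor of matrix metalloproteinases, fell from 7.88 ± 0.25 in COS to 3.65 ± 2.44 in CES (SD, n = 4), a difference of -4.24 (limma adjusted p = 0.00885), and it was not called after loess and Aquantile, where it was -3.79 (limma adjusted p = 0.0542), nor with channel medians over commonly valid spots (-3.83) or the deposited log2 table (-3.88). *Tgfbi*, a matrix protein named for its induction by TGF-beta, differed by -2.21 (limma adjusted p = 0.00632). For both genes no CES rat reached the COS range, and without CES replicate 2 the differences were -5.39 and -2.76. Without COS replicate 3 neither was called, at -4.02 for *Timp1* (limma adjusted p = 0.0842) and -1.93 for *Tgfbi* (limma adjusted p = 0.0628), and *Timp1* was not called without CES replicate 1 either (-3.56, limma adjusted p = 0.0507). These genes also respond to signals other than TGF-beta.

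Among secreted binding proteins and inhibitors 8 of 17 fell and 2 rose (limma; 5 lower and 2 higher after loess and Aquantile), with a median of -0.61, or -0.36 relative to all genes. *Fstl3*, a follistatin-like protein that binds activin, fell from 2.35 ± 0.16 in COS to -0.98 ± 1.20 in CES (SD, n = 4), a difference of -3.33 (limma adjusted p = 0.00378). In CES only 2 of its 4 signals were well above background, and the difference was -2.03 after loess and Aquantile, -2.28 with normexp background correction and -3.95 without CES replicate 2. The 2 rises were *Chrd*, which encodes the BMP antagonist chordin, at 1.27 (limma adjusted p = 0.00374), and *Dcn*, which encodes the proteoglycan decorin that binds TGF-beta, at 0.93 (limma adjusted p = 0.0323). Both were also called higher after loess and Aquantile. *Chrd* was not called with normexp background correction (0.85, limma adjusted p = 0.173). *Dcn* was not called with normexp (limma adjusted p = 0.174), with no filter on valid spots (0.0989) or with the replicate number as a block (0.0691), and it also lost its call when COS replicate 1, 3 or 4 or CES replicate 1 or 3 was left out, with differences from 0.76 to 0.96.

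Of the intracellular regulators 8 of 11 fell and none rose (limma; 3 lower and 0 higher after loess and Aquantile), with a median of -0.65, or -0.40 relative to all genes. *Tgif1*, a nuclear corepressor of Smads, differed by -2.72 (limma adjusted p = 0.00390). Its signal stood well above background in 4 COS rats but only 1 CES rat. The difference was -1.15 after loess and Aquantile, -1.33 with normexp background correction and -3.08 without CES replicate 2. Of the other ligands 2 of 10 fell and 1 rose (limma; 0 lower and 1 higher after loess and Aquantile), with a median of -0.34, or -0.09 relative to all genes. The rise was in *Gdf10*, a BMP-like ligand, at 1.86 (limma adjusted p = 0.00518), a 3.64-fold higher level, with every CES rat above every COS rat and a difference of 1.62 after loess and Aquantile and 2.25 without CES replicate 2.

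**Figure D4:**
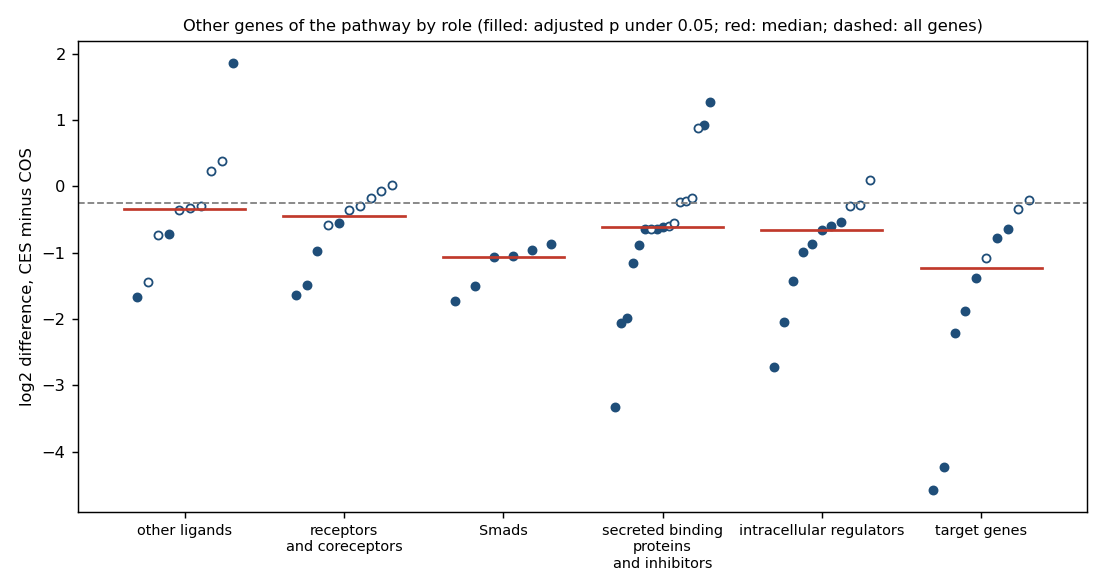
Log2 difference, CES minus COS, of the 64 tested genes of the pathway other than the 10 described first, in 6 lists by role. Each point is a gene, filled where the limma adjusted p was under 0.05, the red line is the median of the list and the dashed line the median of all genes at -0.25; all 6 Smads are filled and lie below the dashed line.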

How the data were processed

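The authors hybridized dentate gyrus RNA of 8 rats to 4 two-colour Agilent arrays and deposited the scanner intensity of each channel, extracted per the labels with Agilent Feature Extraction 10.7.3.1, and a table of normalized values. The deposited log2 values equal log2 of the median intensity minus local background, less a constant per rat, and served as an alternative. No column of another sample was present.

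Following the study's rule, a spot was valid if its mean intensity was at least 2 times the local background, and a gene was quantified from spots valid in all 8 rats. Background-subtracted intensities were divided by the channel median and averaged over spots, and log2 values were tested with limma 3.58.1 (R 4.3.3), with dye as a term, array as a random block (correlation -0.0065) and Benjamini-Hochberg adjustment over 21372 genes. Threshold was 0.05. The number of arrays limits the precision. Of 41012 probes 17512 were named by RefSeq accession and the others by the array's gene name. The fit was tested on simulated data. Figures were drawn with matplotlib 3.10.9.

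The 10 members were named whatever their values. Of the other pathway genes, the text names singly at most 5 with the largest difference in each direction among those called, plus receptors and Smads. One gene that this rule names is not reported here. The members and lists were chosen with earlier results of these data known. Alternatives covered background correction, normalization, filters, blocks, the deposited table, the methods' t-test and leaving out each rat. For that t-test, adjustment over all genes was added and the methods' fold-change cut-off was not applied. The methods describe a correction for redundant spots of a gene.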

Additional observations from a re-analysis of the deposited data

Results flagged for a closer look

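In 2 of the 18 groups of 4 rats examined for the members, 1 rat lay far from the other 3 by Dixon's criterion, which flags about 5% of groups by chance. *Fst* in CES replicate 2 was at a log2 level of 1.60, with the other CES rats between -0.90 and -0.58, a gap of 0.873 of the range. *Bmp4* in COS replicate 4 was at -0.19, with the other COS rats between 0.39 and 0.48, a gap of 0.864 of the range. Relative to all genes it was at -0.80, inside the COS range of -0.91 to -0.40. COS replicate 4 was the lowest COS rat for every quantified member on the channel-median scale.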

How the results depend on the processing

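The 9 members gave 193 values under 22 alternatives, of which 160 kept their direction and their side of the threshold, 18 kept the direction and lost the call, 9 gained a call and 6 changed sign. For 24 other genes of the pathway, 418 of 516 values kept both, 71 lost the call, 3 gained one and 24 changed sign. Alternatives that changed only the blocks, the dye term or the test kept every direction by design. The count of members called lower, 5 as reported, was 2 with normexp background correction, 3 with channel medians over commonly valid spots, 3 with the stricter ratio of 3 for valid spots, 3 with probes well above background in all rats (*Bmp2* and *Tgfbr1* then have no value), 3 with the deposited log2 table and 0 with the methods' t-test, and ranged from 2 to 6 with 1 rat left out. Over all genes, the lower calls, 6054 as reported, numbered 454, 1720, 5838 (of 16793 tested), 5386 (of 13714), 1936 (of 21047) and 0 in the same order, and from 932 to 7029 with 1 rat left out. At an unadjusted p under 0.05 the methods' t-test gave 4 members lower and 0 higher. The count called higher, 0 as reported, was 2 with loess and Aquantile, 2 with quantile normalization, 2 with channel medians over commonly valid spots and 2 with the deposited log2 table, and stayed at 0 with 1 rat left out. Over all genes, the higher calls, 1238 as reported, numbered 3306, 3059, 3352 and 3285 (of 21047) in the same order. With 1 rat left out they numbered from 262 to 1860. The members' median relative to all genes ranged from -0.85 to -0.30. Other pathway genes called lower, 35 as reported, numbered 10 with normexp, 21 with loess and Aquantile, 22 with quantile normalization, 18 with channel medians over commonly valid spots, 21 without the filter on valid spots, 18 with the deposited table and 0 with the methods' t-test (32 lower and 3 higher at an unadjusted p under 0.05), and from 11 to 39 with 1 rat left out. Over all genes the lower calls numbered 2223 with loess and Aquantile, 2226 with quantile normalization and 3075 (of 35250) without the filter. Other pathway genes called higher, 3 as reported, numbered 1 with normexp and 0 with the methods' t-test, and 2 or 3 with 1 rat left out. Over all genes the higher calls numbered 123 with normexp and 0 with the methods' t-test. Under loess and Aquantile, values of the other sign were 0.058 for *Acvr1*, 0.12 for *Acvr2b*, 0.19 for *Bmp4*, 0.26 for *Bmpr1a*, 0.025 for *Bmpr2*. Under quantile normalization, values of the other sign were 0.12 for *Acvr1*, 0.20 for *Acvr2b*, 0.31 for *Bmp4*, 0.31 for *Bmpr1a*, 0.025 for *Bmpr2*. Under channel medians over commonly valid spots, values of the other sign were 0.097 for *Acvr1*, 0.22 for *Acvr2b*, 0.29 for *Bmp4*, 0.33 for *Bmpr1a*, 0.048 for *Bmpr2*. Under the deposited log2 table, values of the other sign were 0.073 for *Acvr1*, 0.19 for *Acvr2b*, 0.28 for *Bmp4*, 0.26 for *Bmpr1a*, 0.033 for *Bmpr2*. Under normexp background correction, values of the other sign were 0.042 for *Bmpr1a*, -0.099 for *Tgfbr3*. Under the processed signal, values of the other sign were -0.40 for *Tgfbr3*. With 1 rat left out, *Bmp4* ranged from -0.24 to 0.096 (above 0 without COS replicate 2 or CES replicate 2), *Bmpr1a* from -0.17 to 0.059 (above 0 without CES replicate 1) and *Tgfbr3* from -0.098 to 0.16 (below 0 without COS replicate 1 or 4 or CES replicate 3 or 4). Channel medians over commonly valid spots shift every gene of a rat by the same constant and leave differences relative to all genes as they were. For the other settings the cause of the changes was not tested. Spots near background limit what *Tgfbr1*, *Tgfbr2* and *Bmp2* can show in CES.

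Replicate numbers are shared by the groups but only as names. Deviations of same-numbered rats from their group means correlated at 0.21 to 0.34, and at -0.065 to -0.039 once the dye, which the number carries, was removed. With the number as a replicate block, 1077 genes were called higher and 6147 lower, against 1238 and 6054, and the members' calls did not change in number (5 lower, 0 higher), while *Dcn* lost its call (limma adjusted p = 0.0691).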
